A study of Mus musculus with 4 samples.

Results

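The regulatory T cells (Tregs) of 20967 melanomas were examined by single cell RNA sequencing, gene by gene and tumor by tumor. They were taken as the cells that the study's authors had named Tregs in their cell table, and numbered 500 of the 4108 CD45+ cells sequenced. The 20967 line came from mice with the alleles Nras+LSL-G12D and Tyr::CreERT2+/o on C57BL/6, in which an inducible Cre driven by the melanocyte Tyr promoter switches on oncogenic Nras. Tumors were raised by intradermal injection into wild-type C57BL/6 hosts. Of the tumors, 5 were given a control treatment and 5 were given clobetasol propionate, a potent glucocorticoid (GC) applied to the skin. Each tumor carried its own hashtag, an antibody with an oligonucleotide that marks all cells of that tumor, so the tumor was the replicate. Control cells, 17100 of them, went into 1 droplet channel, while a second channel took 3500 cells of GC-treated tumors, so channel and treatment cannot be told apart. The age of the mice was not given in the sources used here.

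Tregs are CD4+ T cells that restrain other immune cells, and they depend on the transcription factor Foxp3. They carry the high-affinity IL-2 receptor chain Il2ra and the inhibitory receptor Ctla4, and many of those that leave the thymus carry the transcription factor Ikzf2 (Helios). In tumors and other tissues they are known to blunt CD8+ T cells, in part by presenting latent TGF-beta on GARP, the protein encoded by Lrrc32, and by releasing active TGF-beta through integrin chains such as Itgav and Itgb8. GCs act through the receptor encoded by Nr3c1, a transcription factor that raises genes such as Tsc22d3 and Fkbp5 and lowers many NF-kB targets.

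Control tumors held 486 Tregs, with 108, 134, 125, 85 and 34 in control replicates 1 to 5. GC-treated tumors held 14, with 1, 2, 5, 1 and 5 in GC replicates 1 to 5, so GC replicates 1 and 4 each rest on a single cell. In controls, 345 of the 486 Tregs (71.0%) had a unique molecular identifier (UMI, a count of 1 captured RNA molecule) of all 4 markers Foxp3, Il2ra, Ctla4 and Ikzf2. A further 115 had 3 of them, 25 had 2 and 1 had 1. In GC-treated tumors 10 of the 14 had all 4, 3 had 3 and 1 had 2. Most cells thus carried the markers in both groups. The authors named the clusters by their marker genes, so this is a description and no independent check of the label.

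Control Tregs held a median of 6169 UMIs per cell, close to the 6342 of the CD8 1 cluster and below the 7281 of the cluster named CD4. Their median mitochondrial share was 1.27%, against 2.54% in the CD4 cluster and 2.22% in CD8 1 cells. The tumors' median depth of Tregs was 5983 to 6413 UMIs in controls and 7577 to 11916 with GC. The means were 6238 ± 201 and 9038 ± 1707 UMIs (SD, n = 5 each), and the groups did not overlap (exact two-sided permutation test, p = 0.00794, the smallest that 5 against 5 can give, and 0.0159 after Benjamini-Hochberg adjustment over 4 tests of this kind). The median mitochondrial share per tumor was 1.22 ± 0.131% in controls and 1.46 ± 0.450% with GC (exact permutation test, p = 0.333, adjusted 0.444, n = 5 each).

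Tregs were a smaller part of the lymphocytes after GC, while their balance with the other CD4 cells was not shown to differ. As a share of all T and NK cells they made up 30.8, 32.6, 19.9, 33.7 and 21.8% in control replicates 1 to 5. In GC replicates 1 to 5 they made up 11.1, 11.8, 8.77, 7.69 and 10.0%. All 5 GC tumors lay below all 5 control tumors, with means of 27.8 ± 6.44% and 9.87 ± 1.67% (SD, n = 5 each, exact permutation test, p = 0.00794, adjusted 0.0159). Of Tregs and CD4 cluster cells together, Tregs were 63.0 to 70.2% in controls and 45.5 to 83.3% with GC. These groups overlapped, with means of 65.7 ± 2.82% and 59.1 ± 15.8% (exact permutation test, p = 0.460, adjusted 0.460, n = 5 each), and 3 of the 5 GC shares rest on 3 or fewer cells in all. The difference of −6.61 percentage points became −21.8 without cells holding Cd8a, Cd8b1 or B cell UMIs (exact permutation p = 0.119) and −12.7 without GC replicate 5 (p = 0.0794), and lay between −3.21 and −8.51 when any other tumor was left out. Leaving out cells with Cd8a, Cd8b1 or B cell UMIs removed the only Treg of GC replicate 4, which held a B cell UMI.

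The identity of the Tregs was described in the 5 control tumors against the CD4 cluster (253 cells) and CD8 1 cells (517 cells). A gene's level is its UMIs per 10000 in each cell, averaged over the cells of a tumor, and a fold is taken on log2(level + 0.1), which understates the change of low genes. A gene was counted as higher or lower where it was at least 2-fold apart in the same direction in 5 of 5 tumors. The clusters were made from these genes, so this is a description and carries no test. Against the CD4 cluster, 6737 genes passed a minimum mean level of 0.2 in either class, of which 235 were higher in Tregs (3.49%) and 214 lower (3.18%). Against CD8 1 cells, 6747 passed, with 313 higher (4.64%) and 236 lower (3.5%). Higher against both were 158 genes, and lower against both were 128.

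The Treg core list stood highest. Of its 15 genes 14 passed the minimum level, and 12 were higher than in the CD4 cluster and 11 higher than in CD8 1 cells, with 0 lower. Its median log2 difference was 2.61 against the CD4 cluster and 2.45 against CD8 1 cells, where the medians over all genes were −0.07 and −0.09. Foxp3 (chrX:7573644-7595245, plus strand, GRCm38) stood at 4.73, 4.88, 4.27, 4.33 and 4.94 UMIs per 10000 in control replicates 1 to 5, at 0.130 ± 0.0860 in the CD4 cluster and at 0.0139 ± 0.0198 in CD8 1 cells (SD, n = 5). It was within a narrow range in all 5 tumors and 20.5-fold and 41.5-fold higher in Tregs. An RNA on the same strand, Flicr, overlaps Foxp3, so a part of its UMIs is uncertain.

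The IL-2 receptor chain Il2ra stood at 25.6 ± 2.31 in Tregs, 0.431 ± 0.180 in the CD4 cluster and 2.59 ± 0.474 in CD8 1 cells. Ctla4, which removes B7 ligands from antigen-presenting cells, stood at 28.8 ± 2.60, 3.13 ± 0.555 and 5.00 ± 0.810. Ikzf2 was the highest of the markers, at 87.7 ± 3.18, 12.9 ± 1.99 and 3.22 ± 1.37. The Tregs of each of the 5 tumors lay above both other clusters for these 3 genes. The costimulatory TNF receptors followed, with Tnfrsf9 (4-1BB) 11.9-fold and 10.7-fold higher, Tnfrsf4 (OX40) 9.07-fold and 17.0-fold, and Tnfrsf18 (GITR) 3.91-fold and 3.93-fold. The costimulator Icos and the actin-capping protein Capg were at least 2-fold higher in every tumor only against the CD4 cluster. Nrp1, a receptor often found on Tregs from the thymus, did not pass against either, at 2.50 ± 0.405 in Tregs and 2.50 ± 0.654 in CD8 1 cells. Cd4 itself was low at 1.16 ± 0.161, near the 1.46 ± 0.301 of the CD4 cluster and above the 0.166 ± 0.0744 of CD8 1 cells.

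**Figure D1:**
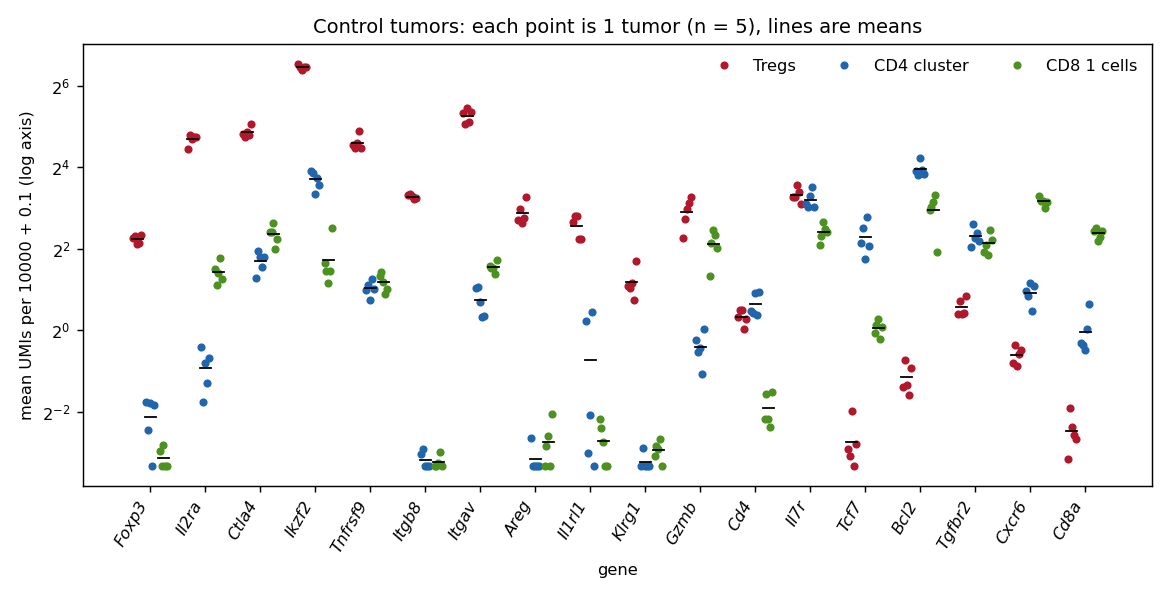
Mean UMIs per 10000 (plus 0.1, log axis) of 18 genes in Tregs, the CD4 cluster and CD8 1 cells of the 5 control tumors, with 1 point per tumor and a line at each mean. The Treg points of Foxp3, Il2ra, Itgb8, Itgav and Areg lie above those of both other clusters, while those of Tcf7, Bcl2, Cxcr6 and Cd8a lie below.

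Among genes of suppression, those that activate TGF-beta stood out more than the cytokine itself. Of 14 listed genes that passed, 7 were higher than in the CD4 cluster and 6 higher than in CD8 1 cells, with 0 lower. Itgb8, whose integrin with Itgav frees TGF-beta from its latent form, stood at 9.88, 10.0, 9.68, 9.20 and 9.32 in the 5 tumors, against 0.0108 ± 0.0154 and 0.0061 ± 0.0110. It was 87.7-fold and 91.6-fold higher, and no tumor stood apart. Its partner Itgav stood at 38.3 ± 4.37, against 1.56 ± 0.413 and 2.83 ± 0.242. Lrrc32 was lower, at 1.26 ± 0.422 in Tregs, 0.0949 ± 0.125 in the CD4 cluster and 0.00659 ± 0.0147 in CD8 1 cells.

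Tgfb1 was not higher in Tregs, with 1.93 ± 0.171 against 1.51 ± 0.289 in the CD4 cluster and 3.42 ± 1.12 in CD8 1 cells. The anti-inflammatory cytokine Il10 stood at 1.79 ± 0.807 and was 12.6-fold and 16.1-fold higher. The ectoenzyme Entpd1 (CD39), which breaks down extracellular ATP, was 5.80-fold higher than in the CD4 cluster and, at 2.17-fold, not counted against CD8 1 cells. The inhibitory receptors Pdcd1 and Lag3 were not counted as higher than in CD8 1 cells. Pdcd1 (PD-1) stood at 1.30 ± 0.734 in Tregs and 4.90 ± 0.740 in CD8 1 cells, and Lag3 at 0.427 ± 0.203 and 1.33 ± 0.559.

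Genes that mark Tregs resident in tissues formed the next group, with 8 of 14 higher than in the CD4 cluster, 6 of 14 higher than in CD8 1 cells and 0 lower. The growth factor Areg (amphiregulin) stood at 6.38, 7.79, 6.15, 6.61 and 9.54 in the 5 tumors, and at 0.0119 ± 0.0266 and 0.0489 ± 0.0577 in the other clusters. Il1rl1, the receptor for the alarmin IL-33, stood at 5.81 ± 1.15, 9.83-fold and 38.9-fold higher. The inhibitory lectin receptor Klrg1 stood at 2.15 ± 0.578, 21-fold and 17.3-fold higher. The decoy receptor Il1r2, the opioid precursor Penk and the transcription factor Maf were also counted against both. Itgae (CD103), which binds E-cadherin on epithelium, and the transcription factor Rora were counted only against the CD4 cluster. Ccr8, a chemokine receptor used as a marker of tumor Tregs, was low in all 3 clusters, at 0.362 ± 0.0504, 0.0756 ± 0.0734 and 0.254 ± 0.116.

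Signaling genes were partly higher. Of 14 NF-kB and T cell receptor signaling genes that passed, 4 were higher than in the CD4 cluster and 3 higher than in CD8 1 cells, among them the NF-kB subunit Rel at 9.74 ± 1.86 against 2.61 ± 0.595 and 3.05 ± 0.444 and the adaptor Traf1 at 5.88 ± 0.816 against 1.64 ± 0.157 and 1.84 ± 0.337. Of 10 IL-2 signaling genes, 2 and 1 were higher, with Stat5a at 1.66 ± 0.161 against 0.491 ± 0.137 and 0.384 ± 0.187. Among 7 chemokine receptors, Ccr2 was among those higher than in the CD4 cluster, and Ccr4, Ccr6 and Cxcr4 were among those higher than in CD8 1 cells. Cxcr6 was lower against both, at 0.556 ± 0.0987 against 1.80 ± 0.339 and 8.85 ± 0.664.

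Some genes of resting T cells were nearly absent in Tregs while Il7r was not. Of 10 genes of resting and lymph node homing T cells, 0 were higher and 5 were lower than in the CD4 cluster, with a median log2 difference of −1.09. Against CD8 1 cells 1 was higher and 2 were lower, with a median of 0.63. The survival gene Bcl2 stood at 0.350 ± 0.113 against 15.4 ± 1.93 in the CD4 cluster and 7.60 ± 2.37 in CD8 1 cells. The stem-like T cell factor Tcf7 stood at 0.0499 ± 0.0599 against 4.81 ± 1.38 and 0.934 ± 0.133. Both were lower than in either cluster, and Bach2, S1pr1 and Lef1 were lower than in the CD4 cluster only. Il7r, the IL-7 receptor, stood at 9.95 ± 1.23 against 9.11 ± 1.45 and 5.19 ± 0.768.

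Among the 11 TGF-beta response genes, 1 was lower than in the CD4 cluster and 2 lower than in CD8 1 cells, with 0 higher. The receptor chain Tgfbr2 stood at 1.38 ± 0.219 in Tregs, 4.85 ± 0.737 in the CD4 cluster and 4.28 ± 0.772 in CD8 1 cells, with the Tregs lowest in all 5 tumors. The feedback inhibitor Smad7 stood at 6.74 ± 0.581, 4.53 ± 1.36 and 4.45 ± 0.669. Of 8 CD8 and cytotoxic genes, 5 were lower than in the CD4 cluster and 7 of 8 lower than in CD8 1 cells. Granzyme B (Gzmb) was the exception, at 7.41 ± 1.88 in Tregs, 0.654 ± 0.200 in the CD4 cluster and 4.2 ± 1.14 in CD8 1 cells, while Prf1 (perforin) stood at 0.162 ± 0.177 in Tregs. Cd8a stood at 0.0798 ± 0.0576 in Tregs and 0.874 ± 0.351 in the CD4 cluster, which holds cells with CD8 and B cell UMIs. Without those cells 354 genes in place of 449 were counted in either direction. Of the conventional CD4 effector genes 2 of 4 were lower than in the CD4 cluster and 3 of 5 lower than in CD8 1 cells, with Ifng and Cd40lg lower against both. Of the GC response genes 3 of 14 and 2 of 12 were higher in control Tregs and of the interferon genes 0 of 9 and 2 of 9, while of the 3 and 4 cell cycle genes that passed 0 were counted.

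**Figure D2:**
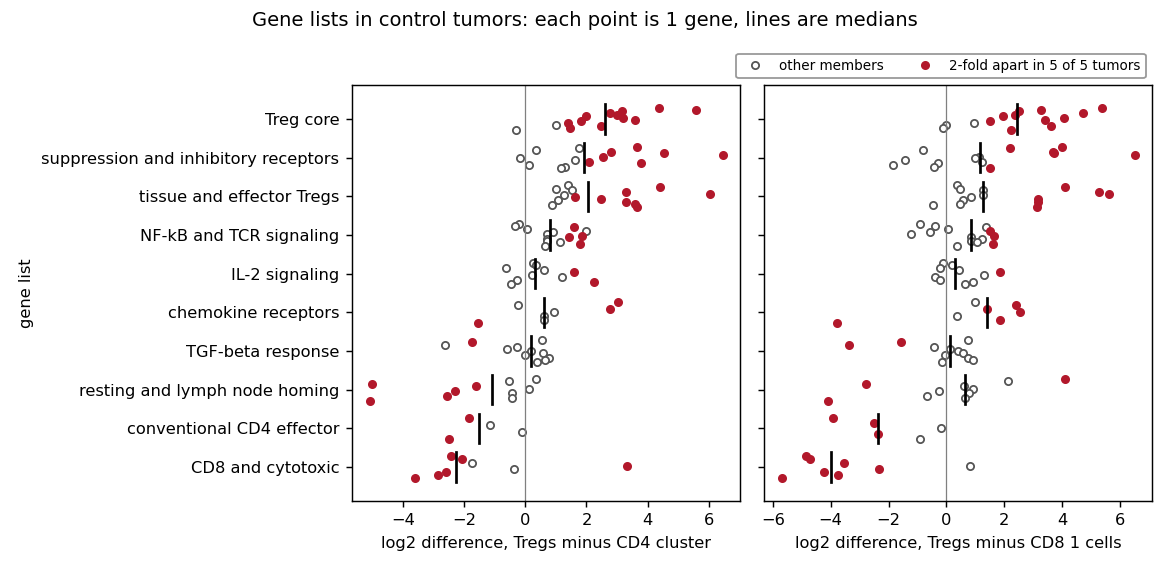
Log2 differences of the genes of 10 lists, Tregs minus the CD4 cluster (left) and minus CD8 1 cells (right), in control tumors, with 1 point per gene, filled where the gene was 2-fold apart in 5 of 5 tumors, and a line at the median. The Treg core list has the highest median on both sides, 2.61 and 2.45, and the CD8 and cytotoxic list the lowest, −2.26 and −4.00.

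Ranked over all genes by the nearer of the 2 folds, the 10 highest in Tregs were Itgb8, Frmd5, Areg, Nckap5, Neb, Foxp3, Pcsk1, Klrg1, Cep112 and Itgav. Frmd5, a membrane protein of cell junctions, stood at 10.1 ± 1.94 in Tregs, 0.00358 ± 0.00801 in the CD4 cluster and 0.0299 ± 0.0270 in CD8 1 cells. Pcsk1, a protease that cuts prohormones such as that encoded by Penk, stood at 1.92 ± 0.165 with 0 in the CD4 cluster and 0.00124 ± 0.00278 in CD8 1 cells. The 10 lowest were Atp8b4, Ly6c2, Pde3b, Fgf13, Bcl2, Mctp2, Klrd1, Klrk1, Evl and St8sia1. Pde3b, an enzyme that breaks down cyclic AMP, stood at 0.197 ± 0.146 against 8.59 ± 1.52 and 6.96 ± 1.45.

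Within the control Tregs, some genes were found in nearly all cells and others in a part of them. A share of cells with a UMI moves with depth, so each cell was also thinned to 3000 UMIs, which left 412 of the 486 cells, and the share in tumor-associated macrophages (TAMs, median 12883 UMIs) was taken as the background of free RNA. A Foxp3 UMI was found in 77.8 ± 1.52% of Tregs (SD, n = 5 tumors), in 66.9 ± 5.72% after thinning and in 1.76 ± 1.27% of TAMs. Ikzf2 was found in 99.1 ± 1.32%, Ctla4 in 94.3 ± 1.76% and Il2ra in 94.1 ± 1.75%, against 22.6, 16.9 and 6.16% of TAMs. After thinning the shares were 99.5, 92.5 and 90.0% in Tregs and 7.29, 5.11 and 2.82% in TAMs. These 3 genes were thus seen in nearly all Tregs.

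Other genes were seen in a part of the cells. A cell can hold a low gene without a captured UMI, so such a share does not show that a gene divides the cells. Itgb8 was found in 67.7 ± 2.80% of Tregs, Gzmb in 55.9 ± 5.19%, Il1rl1 in 50.4 ± 8.02%, Areg in 48.0 ± 1.61% and Klrg1 in 47.0 ± 7.21%. After thinning these shares were 61.3, 55.1, 46.1, 41.5 and 36.6%, while in thinned TAMs they were 0.385, 1.59, 0, 1.48 and 0.114%. The shares differed between tumors, most for Il1rl1, at 37.6 to 59.7%. Frmd5, one of the highest genes by fold, was found in only 27.6 ± 4.52% of Tregs (25.6% after thinning), and Il10 in 14.2 ± 2.50% (10.9%). Mki67, a marker of dividing cells, was found in 13.7 ± 3.74% of Tregs and in 9.14 ± 1.35% of TAMs, and after thinning in 8.70 and 1.81%. For Mki67 the TAM share may be RNA of the TAMs themselves and is not taken as background. Tcf7 was found in 2.03 ± 1.88% of Tregs, against 81.2% of the CD4 cluster.

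**Figure D3:**
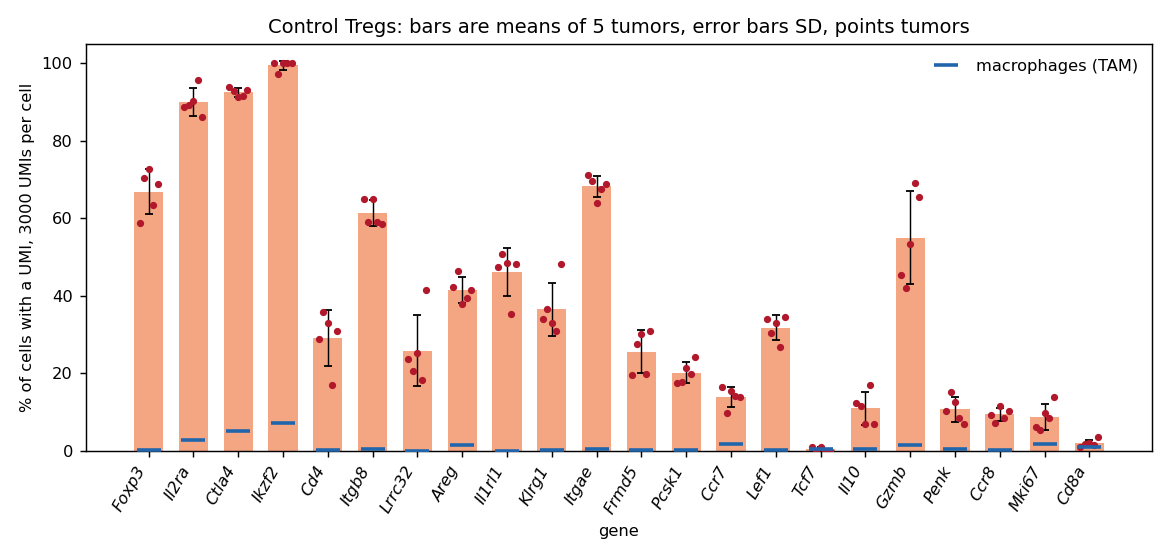
Percentage of control Tregs with a UMI of each gene after thinning to 3000 UMIs per cell, as bars (mean of 5 tumors), error bars (SD) and points (tumors), with blue marks for the mean in thinned TAMs. Ikzf2, Ctla4 and Il2ra lie highest, at 99.5, 92.5 and 90.0%, followed by Itgae, Foxp3 and Itgb8 at 68.3, 66.9 and 61.3%, and Tcf7 lies lowest at 0.400%.

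Tregs with a UMI of some of these genes were set against those without, tumor by tumor. These splits were chosen after the data were examined and are given without a test, in the thinned cells, as the count of listed genes that lay on the same side in 5 of 5 tumors. Some genes do so by chance and no share over all genes stands beside these counts, so they are not read as an excess. Tregs with a Gzmb UMI (214 cells) against those without (198) had 17 of 114 genes higher and 12 lower. Cxcr6 was 5.65-fold higher (0.787 ± 0.276 against 0.139 ± 0.135), the T helper 1 factor Tbx21 2.76-fold, Ccr2 2.17-fold, Maf 1.88-fold and Klrg1 1.81-fold. Lower were Nrp1 (1.35 ± 0.555 against 3.96 ± 0.796), Bach2 (1.01 ± 0.374 against 2.85 ± 1.07), Bcl2 and Ccr7.

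Tregs with an Areg UMI (172 cells against 240) had 15 of 110 genes higher and 1 lower. The largest of these by fold were Nr4a1 at 8.50 ± 1.45 against 4.83 ± 2.47, Traf1 at 7.37 ± 1.21 against 4.53 ± 0.457, Il1rl1 at 7.64 ± 0.707 against 4.84 ± 1.92 and Nfkb1 at 20.3 ± 3.64 against 13.4 ± 2.32. The lower gene was Nrp1 (1.59 ± 0.751 against 3.12 ± 1.00). Tregs with a Klrg1 UMI (144 against 268) had 9 of 114 higher, Frmd5 first at 14.8 ± 5.74 against 6.31 ± 2.74, and 4 lower, namely Ccr4, Nrp1, Cxcr4 and Bach2. Nrp1 was on the lower side of the Gzmb, Areg and Klrg1 splits alike. A UMI of a T cell receptor beta variable gene was found in 38 of the 486 cells (7.82%), so clonal makeup could not be described.

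The GC-treated tumors were then compared with controls on the UMIs of each gene summed over the Tregs of a tumor, by edgeR's quasi-likelihood test with Benjamini-Hochberg adjustment over all genes tested. Levels from here on are these sums per 10000 UMIs, and pooled levels are over all Tregs of a group. The 14 GC Tregs held 125844 UMIs in all and the 486 control Tregs 3203298. Of 2738 genes tested, 64 were higher after GC (2.34%) and 53 lower (1.94%), 117 in all (4.27%) at an adjusted p under 0.05. The GC response gene Fkbp5 and the repressor Klf9 rose, and Areg, Il1rl1 and Frmd5 of the tumor Treg profile fell. Of the 117 genes, 25 were called whichever of the 10 tumors was left out, 11 of them higher and 14 lower. The count was 47, 41, 36, 47 and 56 without control replicates 1 to 5, 67 when GC replicate 3 was left out and 185 when GC replicate 5 was, and 39 where only Tregs with a Foxp3 UMI were summed.

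Of 15 listed GC response genes 8 could be tested, of which 5 rose and 0 fell, beside the 2.34% of all genes that rose. The median log2 difference was 1.38 beside −0.08 over all genes tested. Of the 8, 7 had a positive difference and 1 a negative one. Of the 15 listed genes, Mt1 was 2.41-fold lower after GC in the pooled UMIs (Poisson counting interval 1.02 to 7.48), with 5 UMIs in GC Tregs. Errfi1 and Per1 were 1.43-fold and 1.20-fold lower, with intervals of 0.548 to 5.33 and 0.573 to 3.02 that span no change. Mt2 went the other way, with a ratio of control to GC of 0.602 (0.266 to 1.68). Klf9 and Fkbp5, both low in controls, passed the filter on low counts only through their GC levels. The counts of tested genes that rose and the median are therefore no test of the list. Fkbp5, a chaperone of the GC receptor, stood at 0.584, 0.707, 0.746, 0.726 and 0.442 UMIs per 10000 in control replicates 1 to 5 and at 3.68, 2.64, 4.16, 8.39 and 9.16 in GC replicates 1 to 5. All 5 GC tumors lay above all controls, and its fitted difference was 3.17 ± 0.33 on the log2 scale (SE, edgeR adjusted p = 3.46e-06), or 9.02-fold. Its UMIs were found in 14 of 14 GC Tregs and in 25.9% of control Tregs. Klf9 stood at 0.0707 to 0.195 in controls and at 9.81, 1.32, 1.87, 1.68 and 1.64 with GC. All 5 again lay above, with a log2 difference of 4.06 ± 0.51 (adjusted p = 4.41e-05).

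Txnip, which binds thioredoxin, stood at 0.795 to 1.37 in controls and at 12.3, 4.62, 3.33, 8.39 and 2.82 with GC, with no overlap (log2 difference 2.06 ± 0.32, edgeR adjusted p = 0.000478). These 3 rises held whichever tumor was left out. Tsc22d3 (GILZ), an inhibitor of NF-kB, stood at 11.0, 1.98, 6.04, 0 and 8.69 with GC against 1.52 to 2.50 in controls. Dusp1, a phosphatase of MAP kinases, stood at 39.2, 24.4, 8.12, 34.4 and 27.2 against 7.82 to 12.6. Both overlapped the controls in 1 or more tumors, and their rises of 1.52 ± 0.36 and 1.23 ± 0.30 (edgeR adjusted p = 0.0226 each) were lost without any of control replicates 1 to 4, at an adjusted p of at most 0.0858 for Dusp1. That for Tsc22d3 was also lost without GC replicate 3 or 5, at up to 0.106, and 3 of the 8 genes were then called without each of those 4 controls. The receptor gene Nr3c1 was pooled at 13.1 in controls and 18.4 with GC, and did not pass.

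The promoters of Fkbp5 and Klf9, which rose, and of Areg, which fell, are shown as the 250 bases before the start of the gene, as RefSeq gives them on GRCm38.p6. Fkbp5 lies at chr17:28486150-28486399 on the minus strand, Klf9 at chr19:23140976-23141225 on the plus strand and Areg at chr5:91139349-91139598 on the plus strand. Capitals mark a cAMP response element, TGACGTCA, which reads the same on both strands.
Fkbp5: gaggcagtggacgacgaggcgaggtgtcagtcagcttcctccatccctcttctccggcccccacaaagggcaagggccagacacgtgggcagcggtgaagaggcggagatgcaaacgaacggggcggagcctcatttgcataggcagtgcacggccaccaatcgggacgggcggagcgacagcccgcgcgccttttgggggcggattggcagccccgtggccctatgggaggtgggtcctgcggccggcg
Klf9: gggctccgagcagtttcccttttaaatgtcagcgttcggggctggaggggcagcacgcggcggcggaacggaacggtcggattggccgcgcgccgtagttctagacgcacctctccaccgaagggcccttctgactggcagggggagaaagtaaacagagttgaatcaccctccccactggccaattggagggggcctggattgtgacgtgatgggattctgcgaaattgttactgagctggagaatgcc
Areg: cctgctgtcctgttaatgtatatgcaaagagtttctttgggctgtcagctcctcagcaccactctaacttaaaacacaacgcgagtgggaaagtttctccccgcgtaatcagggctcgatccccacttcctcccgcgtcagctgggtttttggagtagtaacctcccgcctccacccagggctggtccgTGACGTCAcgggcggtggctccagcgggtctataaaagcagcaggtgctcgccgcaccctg
The Areg window held this element once, at position −61 from the start, and it was found in 1.55% of 32851 windows of the same length. Windows of the GC response genes Dusp1, which rose, and Errfi1 also held it, at −143 and −51. The short GC receptor motif AGAACA, searched on both strands, was in neither the Fkbp5 nor the Klf9 window, and was found in 16.1% of all windows. Among the GC response genes 13 had a window, and it was found for 2 of them, Sgk1 and Tsc22d3. The paired motif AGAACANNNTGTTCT, which contains the short motif, was found in 3 of all windows (0.00913%), 1 of them a window of Sgk1.

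The other genes that rose by the naming rule came from no list. Ccnd3, a cyclin of the start of the cell cycle, stood at 2.34 to 3.18 in controls and at 19.6, 13.9, 13.1, 4.2 and 11.0 with GC. Zfp36l2, which promotes decay of mRNAs, stood at 3.54 to 5.91 in controls and at 52.7, 21.8, 11.9, 21.8 and 24.4 with GC. Neither overlapped, with log2 differences of 2.13 ± 0.25 and 2.26 ± 0.30 (edgeR adjusted p = 2.62e-05 and 6.04e-05). Cited2, a transcriptional coactivator, rose by 2.48 ± 0.43 (adjusted p = 0.00186), with GC tumors at 2.45, 3.96, 1.87, 12.6 and 2.35 above all controls (0.448 to 0.973). Ppp1r21 and Gm15472 rose by 1.98 ± 0.36 and 2.10 ± 0.39 with no overlap, but Gm15472 lies within Ptpn22 on the same strand, so its UMIs may belong to that gene.

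Prdx6, an antioxidant enzyme, and Mlxip, a glucose-sensing factor, were called at 2.31 ± 0.54 and 2.11 ± 0.55 (edgeR adjusted p = 0.0243 and 0.0426). Each leaned on a single tumor. GC replicate 5 stood at 9.86 for Prdx6 with the other GC tumors at 0.839 to 2.45, and GC replicate 1 at 25.7 for Mlxip. Without GC replicate 5 the difference of Prdx6 was 0.55 (adjusted p = 0.615), and its call was also lost without control replicate 3, 4 or 5. The call of Mlxip held only without GC replicate 2 or GC replicate 4. Il7r was the only gene of the resting list to pass (1 of 8), beside the 2.34% of all genes that rose. It stood at 8.71 to 11.0 in controls and at 8.58, 33.7, 18.7, 16.8 and 29.4 with GC, a rise of 1.18 ± 0.30 (adjusted p = 0.0264) that was lost without any 1 control tumor, at up to 0.0969.

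Of 78 ribosomal protein genes tested, 25 rose and 0 fell, beside the 2.34% of all genes that rose. All 78 had a positive difference, and the median was 0.77 on the log2 scale. With no filter on low counts 1 of 80 was called, 56 were positive and the median was 0.13, and in Tregs with a Foxp3 UMI 4 of 78 were called. Rps18, chosen after its values were seen, stood at 2.14 to 2.71 in controls and at 8.58, 4.62, 12.5, 10.1 and 7.05 with GC, with no overlap (log2 difference 1.96 ± 0.26, edgeR adjusted p = 6.04e-05). The count fell to 3, 2, 2, 6 and 7 without control replicates 1 to 5 and to 6 without GC replicate 3. CD8 1 cells of the same tumors had 43 of 79 such genes higher, beside 3.45% of all genes tested in those cells. Ribosomal protein genes have near-identical copies, so their UMIs are uncertain, and the greater depth of the GC Tregs (a median of 8421 UMIs per cell against 6169) moved with this result and its part in it was not tested.

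**Figure D4:**
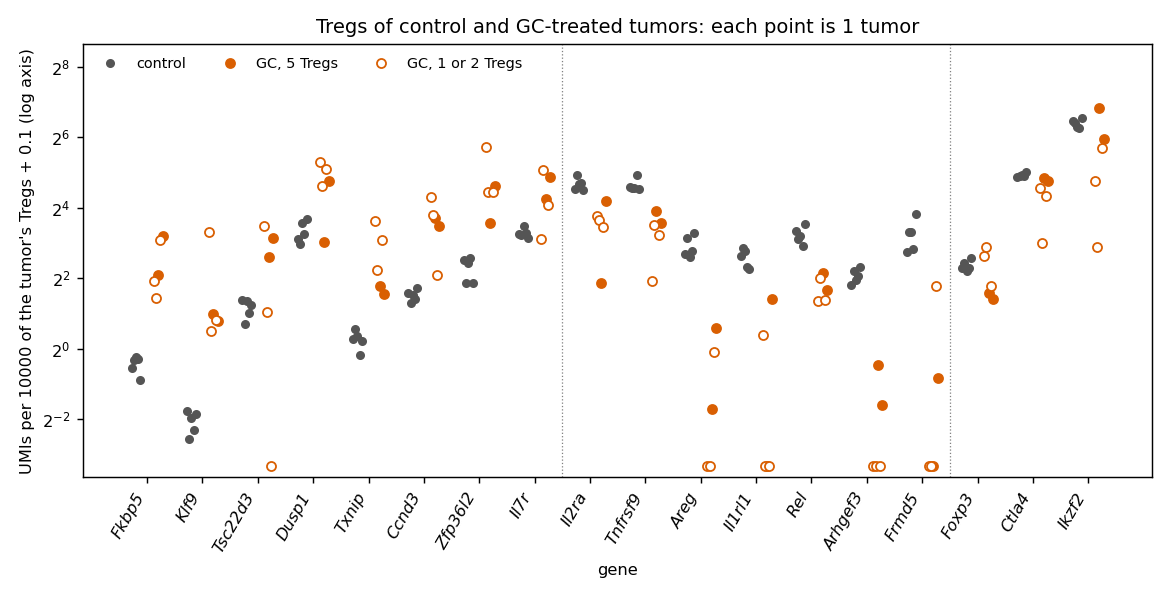
UMIs per 10000 (plus 0.1, log axis) of 18 genes summed over the Tregs of each tumor, with control tumors in gray and GC-treated tumors in orange, filled where the tumor held 5 Tregs and open where it held 1 or 2. The 5 GC points of Fkbp5, Klf9, Txnip, Ccnd3 and Zfp36l2 lie above all control points, those of Areg, Il1rl1, Rel, Arhgef3 and Frmd5 lie below, and those of Foxp3 and Ikzf2 lie on both sides.

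Foxp3, Ctla4 and Ikzf2 did not pass the test, while Il2ra, Tnfrsf9 and Nrp1 fell. Of 14 Treg core genes tested, 3 fell and 0 rose, beside the 1.94% of all genes that fell. A negative difference was found for 13, and the median was −0.40, beside −0.08 over all genes tested. In the tumors with at least 3 Tregs 1 fell, 7 of the 14 were positive and the median was 0.010. The 3 became 0 where only Tregs with a Foxp3 UMI were summed, or without any 1 control tumor. Foxp3 stood at 4.48 to 5.88 in controls and at 6.13, 7.26, 2.91, 3.36 and 2.58 with GC. Its GC values lay on both sides of the controls (log2 difference −0.42 ± 0.29, edgeR adjusted p = 0.465), and it was found in 12 of 14 GC Tregs. Ctla4 (7.92 to 28.7 with GC, below all controls) and Ikzf2 (7.26 to 114) differed by −0.48 ± 0.30 and −0.60 ± 0.49 (adjusted p = 0.425 and 0.558), and both differences turned positive in the tumors with at least 3 Tregs (0.042 and 0.23).

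Il2ra stood at 22.8, 30.6, 25.5, 25.8 and 22.7 in controls and at 13.5, 12.5, 3.54, 10.9 and 18.3 with GC. All 5 GC tumors lay below all controls, and the fall was −1.19 ± 0.32 on the log2 scale (edgeR adjusted p = 0.0393). Tnfrsf9 likewise lay below in 5 of 5 tumors, at 3.68 to 14.8 against 22.9 to 30.3 (−1.17 ± 0.30, adjusted p = 0.0307). Nrp1 stood at 0, 0, 1.25, 0 and 0.235 against 1.71 to 2.37 (−1.95 ± 0.54, adjusted p = 0.0426), with 7 UMIs in all. None of these 3 was called without any 1 of the 5 control tumors, at an adjusted p of up to 0.108, 0.0861 and 0.0897. That of Il2ra was also lost without GC replicate 2 or 3, and that of Nrp1 held only without GC replicate 3.

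Of 12 genes of suppression tested, 1 fell and 0 rose, beside the 1.94% of all genes that fell. Entpd1 stood at 2.35 to 3.02 in controls and at 0, 1.32, 0.416, 1.68 and 0.705 with GC, with no overlap (−1.85 ± 0.44, edgeR adjusted p = 0.0200), and its call was lost without control replicate 2 or 3 or GC replicate 3, at up to 0.0845. The genes that activate TGF-beta did not pass. Itgb8 stood at 8.68 to 10.2 in controls and at 2.45, 21.1, 11.7, 32.7 and 5.17 with GC (0.47 ± 0.37, adjusted p = 0.536), and Lrrc32 was pooled at 1.15 in controls and 0.954 with GC (12 UMIs, 95% Poisson interval 0.493 to 1.67, which covers counting error only). Tgfb1 stood at 1.86 to 2.33 in controls and at 0, 1.32, 0, 0 and 1.64 with GC. All 5 GC tumors lay below, with −1.49 ± 0.54 (adjusted p = 0.114), and without GC replicate 5 the difference was −3.08 (adjusted p = 0.0214). Il10 was pooled at 1.55 in controls and 5.64 with GC, but GC replicates 2 and 3 stood at 0 and 0.208 and it did not pass.

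Of 13 genes of tissue Tregs tested, 3 fell and 0 rose, beside the 1.94% of all genes that fell, and the median was −0.84. The 3 became 2 without any 1 control tumor or GC replicate 3. Areg stood at 6.41, 8.74, 5.99, 6.69 and 9.59 in controls and at 0, 0, 0.208, 0.839 and 1.41 with GC. There was no overlap, its difference was −3.52 ± 0.49 on the log2 scale (edgeR adjusted p = 0.000109), and it was found in 4 of 14 GC Tregs against 47.7% of control Tregs. Il1rl1 stood at 4.69 to 7.14 in controls and at 1.23, 0, 0, 0 and 2.58 with GC (−2.62 ± 0.52, adjusted p = 0.00585). Both calls held whichever tumor was left out. Itgae stood at 6.13, 0, 1.25, 5.04 and 2.82 against 5.39 to 6.34 (−1.32 ± 0.37, adjusted p = 0.0430), and its call held only without GC replicate 1, 4 or 5, with up to 0.128 otherwise. Penk and Il1r2 were pooled at 1.93 and 3.44 in controls and 0.397 and 0.954 with GC, and did not pass (adjusted p = 0.0564 and 0.0703).

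Of 12 genes of NF-kB and T cell receptor signaling tested, 3 fell and 0 rose, against the same 1.94%, with a median of −0.99. The 3 became 2 without any 1 control tumor or GC replicate 2 or 3. Rel stood at 10.0, 8.58, 9.05, 7.42 and 11.5 in controls and at 2.45, 3.96, 4.37, 2.52 and 3.05 with GC. The groups were apart and the fall of −1.39 ± 0.31 (edgeR adjusted p = 0.0158) held whichever tumor was left out. The orphan nuclear receptor Nr4a2, an early target of T cell receptor signals, had 2 UMIs in all GC Tregs and was 9.82-fold lower in the pooled UMIs (95% counting interval 2.71 to 81.3, adjusted p = 0.0183). Its relative Nr4a1 stood at 6.13, 1.32, 0.208, 2.52 and 3.52 against 4.84 to 8.84 (−1.55 ± 0.42, adjusted p = 0.0402), and was called only without GC replicate 1, 4 or 5, with up to 0.147 otherwise. Of 7 IL-2 signaling, 9 TGF-beta response and 3 chemokine receptor genes tested, edgeR called 0 at an adjusted p under 0.05, with 2, 4 and 2 at an unadjusted p under 0.05, and DESeq2 called 1, 2 and 2, all lower. The 3 interferon genes and the 1 cytotoxic gene tested had 0 by either edgeR threshold, but without GC replicate 5 the cytotoxic gene, Gzmb, fell (−1.49 in place of −0.35) and 1 of the 3 interferon genes fell (median −1.92 in place of −0.41). No conventional CD4 effector or cell cycle gene was high enough to test.

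The largest falls included genes near the detection limit. Frmd5 stood at 6.61, 9.81, 9.78, 6.98 and 14.1 in controls and at 0, 0, 0, 3.36 and 0.470 with GC (−4.22 ± 0.60, edgeR adjusted p = 0.000131). Arhgef3, an activator of the GTPase RhoA, stood at 3.41 to 4.86 in controls and at 0, 0, 0.624, 0 and 0.235 with GC (−3.65 ± 0.54, adjusted p = 0.000212). Neither overlapped, and both calls held whichever tumor was left out. Adora2a, the adenosine receptor that raises cyclic AMP, had 274 UMIs in control Tregs and 0 in GC Tregs. Against a floor of 3 UMIs over the group (0.238 per 10000) it was at least 3.59-fold lower (adjusted p = 0.0198, and 0.0644 without GC replicate 3).

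Gem, Cspp1, Slc2a3 and Ppp1r3b each had 1 UMI in the GC Tregs and Casp4 had 2. Their pooled levels were 17.0-fold (95% counting interval 3.03 to 672), 13.2-fold (2.36 to 524.5), 12.5-fold (2.23 to 496.5), 11.6-fold (2.06 to 459) and 10.0-fold (2.76 to 82.9) lower, at edgeR adjusted p between 0.0189 and 0.0396. The call of Casp4 was lost without GC replicate 3 alone, that of Gem without control replicate 3 or GC replicate 3 and that of Cspp1 without control replicate 3 or 4 or GC replicate 3. Slc2a3 was called only without control replicate 1 or GC replicate 1, 2 or 4, and Ppp1r3b only without GC replicate 4.

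Markers of other cells moved with treatment in the Tregs too. The summed macrophage and monocyte markers (8 genes) stood at 0.813 to 1.19 per 10000 in controls and at 0 to 0.470 with GC, with 6 of the 8 at 0 in the GC Tregs, and the 4 antigen presentation genes at 2.91 to 3.98 and 0 to 2.52. The 7 dissociation stress genes overlapped, at 20.95 to 31.8 and 6.87 to 54.5. Mast cell and erythroid markers were at 0 in both groups, melanoma markers at 0 with GC and at most 0.0442 in controls. The sum of Cd8a and Cd8b1 was at most 0.363 in controls and 0.235 with GC. The part of these markers in the results was not tested, and none of the genes named above as called is among the macrophage, antigen presentation or CD8 markers. Of the 5 stress genes tested 1 was called, Junb, at 16.4 to 25.2 in controls and 0.839 to 13.2 with GC (−1.46 ± 0.34, edgeR adjusted p = 0.0189).

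CD8 1 cells of the same tumors had 218 of 4431 genes called after GC (4.92%), 153 higher (3.45%) and 65 lower (1.47%). A test of the difference between the 2 cell types (edgeR, class by treatment with the tumor as a term) called 40 of 4561 genes (0.877%), 6 more positive (0.132%) and 34 more negative (0.745%) in Tregs. The median over all genes of this difference was −0.21 and moved to −0.00 when UMI totals alone set the scale. That scale gave 9 more positive and 16 more negative, so the directions below are also given relative to the median. The count was 25 without control replicate 2 or 3, 24 when GC replicate 4 was left out and 68 when GC replicate 5 was.

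Of the 13 GC response genes tested, 0 differed between the cell types by edgeR at an adjusted p under 0.05, with 5 at an unadjusted p under 0.05. Fkbp5 rose by 3.17 ± 0.33 in Tregs and 1.90 ± 0.25 in CD8 1 cells, Klf9 by 4.06 ± 0.51 and 2.67 ± 0.51, and Tsc22d3 by 1.52 ± 0.36 and 2.04 ± 0.26. The tests of these 3 differences gave an adjusted p of 0.166, 0.676 and 0.369, which does not show that the cells respond alike.

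Il2ra differed by −2.04 ± 0.34 (edgeR adjusted p = 0.000358), or −1.84 relative to the median of all genes, falling in Tregs and standing at 0.70 ± 0.34 in CD8 1 cells (adjusted p = 0.316). Malt1, a scaffold of NF-kB signaling, rose by 1.68 ± 0.19 in CD8 1 cells (adjusted p = 4.25e-05). In Tregs it stood at 9.73 to 12.4 in controls and 1.32 to 7.75 with GC, and the difference was −2.72 ± 0.39 (adjusted p = 0.000172), or −2.52 relative to the median. The chemokine receptor Cxcr4 rose by 1.97 ± 0.22 in CD8 1 cells (adjusted p = 1.49e-06), while in Tregs it stood at 3.90 to 6.01 and 3.68 to 7.55, and the difference was −1.87 ± 0.36 (adjusted p = 0.00235). Arhgef3 fell in Tregs and stood at −0.15 ± 0.18 in CD8 1 cells (adjusted p = 0.741), with a difference of −3.70 ± 0.63 (adjusted p = 0.000358). These 4 differences were called whichever tumor was left out and on the scale of UMI totals.

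Nfkb1 and Rora also differed, by −1.32 ± 0.32 and −1.24 ± 0.32 (edgeR adjusted p = 0.0300 and 0.0412), but neither was called on UMI totals. Nfkb1 was called only without GC replicates 1, 2, 3 or 4, and Rora only without control replicate 1 or GC replicate 3 or 5. The interferon gene Rsad2 was called at 7.63, and all of its GC Treg UMIs, 33, came from 1 cell of GC replicate 5. The 51 UMIs of Ifit1 in GC Tregs likewise came from 1 cell of that tumor, and without this tumor the difference of Rsad2 was −2.12 (adjusted p = 1.0).

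**Figure D5:**
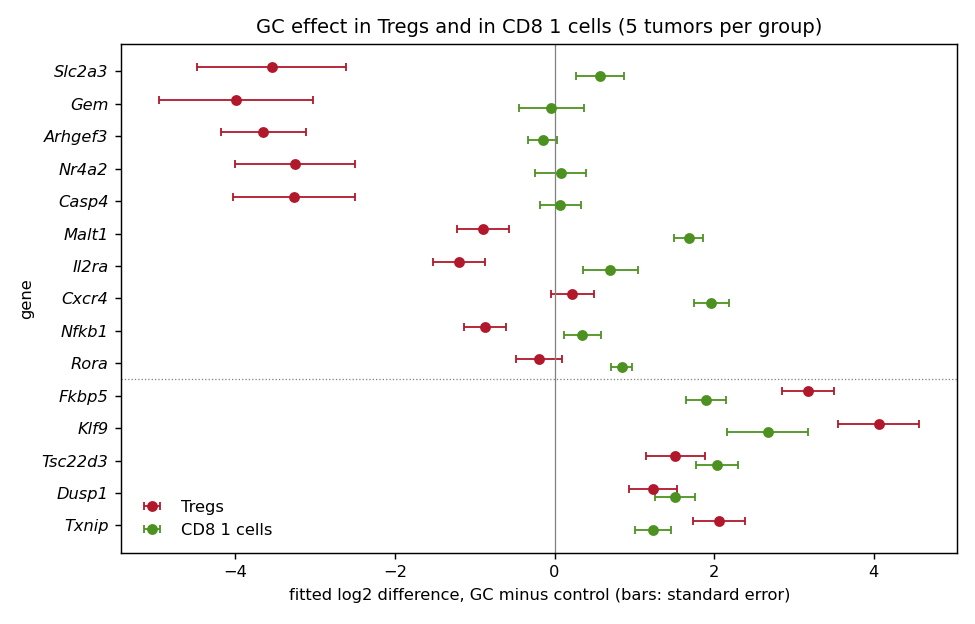
Fitted log2 differences, GC minus control, in Tregs (red) and CD8 1 cells (green) with standard errors, for genes whose differences were called between the cell types (above the dotted line) and 5 GC response genes (below it). Malt1 and Cxcr4 stand at 1.68 and 1.97 in CD8 1 cells and lower in Tregs, Arhgef3 at −0.15 in CD8 1 cells and −3.65 in Tregs, and the 5 GC response genes are positive in both.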

How the data were processed

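Live CD45+ cells of 5 control and 5 GC-treated tumors were sequenced in 1 droplet channel per treatment. The authors ran Cell Ranger 7.1.0 on mm10 with introns, kept cells with 1 hashtag, removed cells of extreme depth or mitochondrial share in R 4.3.1 with Seurat 5.0.3, integrated the channels and named the clusters. The deposited expression values are natural log values, ln(1 + UMIs per 10000 of the cell), and the deposited cell table holds counts of UMIs and genes per cell, the mitochondrial percent, the hashtag and the cluster name. Whole UMIs were recovered from these values: 100% of 10330441 values above 0 came within 0.01 of a whole number, and the sums matched in 4108 of 4108 cells. No cell barcode was shared between channels, and doublets were those removed by the authors through hashtags.

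Members, gene lists and tests were chosen with earlier results of these data known. Levels were means of UMIs per 10000 per tumor. For identity a pseudocount of 0.1 and a minimum mean level of 0.2 were used, and no test was made between clusters. UMIs summed per tumor were tested with edgeR 4.0.16 (quasi-likelihood, filterByExpr, TMM, Benjamini-Hochberg over all genes tested, adjusted p under 0.05), and the difference from CD8 1 cells with the tumor as a term. The hashtag numbers name tumors and pair none of them across treatments. Tumor shares were tested by exact two-sided permutation with SciPy 1.17.1. Genes beyond the lists were named by rank, as the 10 highest and 10 lowest by the nearer fold for identity (at least 0.5 per 10000 in the higher class) and the 10 largest rises and falls among called genes for GC. Alternatives used DESeq2 1.42.0 and limma 3.58.1. Intervals are exact 95% Poisson intervals and the floor is 3 UMIs, both for counting error only. Positions are from GENCODE annotation of GRCm38, in which 72 of 265 named genes overlap a gene on the same strand. The test was run on simulated counts with the same dispersion in every tumor, so the added variation of tumors with few Tregs was not covered. In Tregs it recovered 43% of changes of 1 and 89.7% of changes of 2 on the log2 scale. For the difference from CD8 1 cells it recovered 7% and 59%. A few genes that the lists or ranks hold are not reported here.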

Additional observations from a re-analysis of the deposited data

Results flagged for a closer look

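Among the Treg shares, depths and shares of cells with a UMI and the genes that rose or fell most with GC, 68 groups of 5 tumors were examined for a value far from the others, and 10 were found. The rule's nominal rate of about 1 in 20 groups does not hold here, because a single UMI with 0 in the other tumors is always flagged. The 10 are therefore not read as an excess. Klf9 stood at 9.81 UMIs per 10000 in GC replicate 1, Cited2 at 12.6 in GC replicate 4, Prdx6 at 9.86 in GC replicate 5, Mlxip at 25.7 in GC replicate 1 and at 1.42 in control replicate 4, and Frmd5 at 3.36 in GC replicate 4. GC replicates 1 and 4 held 1 Treg each. Gem and Cspp1 stood at 0.235 in GC replicate 5, Slc2a3 at 0.660 in GC replicate 2 and Ppp1r3b at 0.839 in GC replicate 4, each from a single UMI with the other GC tumors at 0.

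The response to GC differed between Tregs and CD8 1 cells for 13 of the named genes, by edgeR's test of the difference itself, as Tregs minus CD8 1 on the log2 scale. Over all genes that test called 40 of 4561 (0.877%). Gem, Slc2a3, Casp4, Arhgef3 and Ppp1r21 were named for a large change in these same Tregs, so their place here partly follows from that choice. More negative in Tregs were Areg (−5.68), Slc2a3 (−4.32), Gem (−4.16), Arhgef3 (−3.70), Nr4a2 (−3.52), Casp4 (−3.46), Malt1 (−2.72), Il2ra (−2.04), Cxcr4 (−1.87), Nfkb1 (−1.32) and Rora (−1.24). More positive were Rsad2 (7.63) and Ppp1r21 (2.17). Of these, Il2ra, Malt1, Cxcr4 and Arhgef3 were called whichever tumor was left out. Areg was lost without GC replicate 5 alone (−4.82, adjusted p = 0.434), and Slc2a3 without GC replicate 3 alone (−3.15, adjusted p = 0.193). An Areg UMI was found in only 11 of 517 control CD8 1 cells, so the CD8 1 side of its difference rests on few UMIs. When 1 of the 10 tumors was left out, Gem and Ppp1r21 were called in 2 of the 10 fits, Rora in 3 and Nr4a2, Casp4 and Nfkb1 in 4, with adjusted p up to 0.226, 0.152, 0.115, 0.0864, 0.109 and 0.0948. On UMI totals Gem, Nr4a2, Casp4, Nfkb1 and Rora were not called.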

How the results depend on the processing

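The 117 genes called in Tregs after GC became 322 with DESeq2, 498 (75 higher, 423 lower) with no filter on low counts, 218 in tumors with at least 3 Tregs, 39 in Tregs with a Foxp3 UMI and 76 without ribosomal protein genes, a setting chosen after seeing the data, and 36 to 185 when 1 tumor was left out. Size factors by median of ratios gave 126 (76 higher, 50 lower), and limma gave 31 higher and 92 lower. The 40 genes that differed from CD8 1 cells became 25 with UMI totals, 90 with CD8 1, 2 and 3 cells together and 24 to 68 when 1 tumor was left out. With a pseudocount of 0.5 the 449 identity genes against the CD4 cluster became 242 and the 549 against CD8 1 cells 302. The median share of Tregs with a UMI of a listed gene moved from 46.2 to 31.7% after thinning. In tumors with at least 3 Tregs the differences of Ctla4, Ikzf2 and Itgb8, none of them called, turned to 0.042, 0.23 and −0.0095, and that of Itgb8 was −0.086 with limma and −0.23 with no filter. Rsad2 ranged from −2.12 (without GC replicate 5) to 8.35 when 1 tumor was left out, and the mitochondrial share to −0.127 percentage points as a mean over cells (exact permutation p = 0.524). The causes were not tested. Of the other values for single genes after GC, 532 kept direction and side of the threshold, 126 lost the call and 3 gained it, and for the difference from CD8 1 cells 116 kept it and 52 lost it. Control and GC-treated tumors could not be paired because each tumor was its own replicate and no label pairs them. Only the difference from CD8 1 cells was paired, within each tumor. The 14 GC Tregs limit the depth of every GC value.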
